A study of Mus musculus with 11 samples.

Results

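Solute carriers are the membrane proteins that move amino acids, sugars, organic acids, nucleosides, metals and ions across the plasma membrane and across the membranes of mitochondria, lysosomes and the endoplasmic reticulum. The genes described here are the expressed members of this superfamily, chosen by their measured values: rows of the deposited table whose symbol begins with Slc and a digit, reaching 50 or more in 3 or more of the 11 samples. The rule kept 194 of 377 solute carrier rows, in a table of 21860 genes. Of the 194, 164 stood at 50 or more in all 11 samples and 30 fell below 50 in some sample. Symbols carried 4 genes that are no transporter into the set (Slc4a1ap, Slc7a6os, Slc9a3r1 and Slc9a3r2), which left 190 transporters. By substrate, 27 carry amino acids or peptides, 11 carry glucose or other sugars, 6 are monocarboxylate carriers, 5 are nucleoside carriers, 26 are metal carriers, 37 are mitochondrial carriers of the SLC25 family (with the peroxisomal Slc25a17), 26 carry inorganic ions, 32 carry lipids, vitamins or other organic molecules and 20 carry nucleotide sugars. The value that decided membership stood just inside the rule for Slc12a2 (54.5), Slc39a2 (54.8) and Slc25a14 (58.6), and just outside it for Slc18a1 (47.4), Slc45a3 (45.2) and Slc6a15 (41.3).

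The values come from bulk RNA sequencing of CD11b-low EpCAM+ cells that were sorted on day 6 from cultures of mouse bone marrow monocytes, a model of monocyte-derived Langerhans cells of the epidermis. All cultures received GM-CSF (20 ng/ml), and 10 of the 11 also received TGFβ (5 ng/ml) and IL-34 (8 µg/ml), the signals that direct monocytes toward Langerhans cells. TGFβ/IL-34/Jag1 had 3 samples, as had TGFβ/IL-34/Jag1/FICZ, while TGFβ/IL-34 had 2, as had TGFβ/IL-34/FICZ, and Jag1 only had 1, which had neither TGFβ nor IL-34. Jagged-1 (Jag1), a Notch ligand, was displayed by an OP9 bone marrow stromal line made to carry it, and FICZ is a ligand of the aryl hydrocarbon receptor (Ahr), named an agonist by the study and an antagonist in the deposited design text. The labels name OP9 co-culture for all 11 samples. Summed OP9 stroma markers, however, were at most 94.4 in the samples without Jag1 and at least 484 in those with it. An effect of Jag1 therefore cannot be told apart here from an effect of the stroma that carried it. Nothing in the labels says that samples came from separate animals, so p-values measure the spread between these samples.

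Several carriers work only with a partner. The light chains of the SLC7 family need the heavy chain Slc3a2 to reach the plasma membrane, and the lactate carriers Slc16a1 and Slc16a3 need basigin (Bsg) or embigin (Emb). Carriers of the SLC25 family sit in the inner mitochondrial membrane and link cytosolic and mitochondrial pools of nucleotides, phosphate, acids and iron. In myeloid cells, solute carriers are known for supplying arginine, cystine, glucose and nucleosides and for withholding iron, zinc and manganese from microbes.

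The values, called normalized counts here, summed to 21.3 to 27.8 M per sample, and 1 read was worth about 0.894 to 1.15 of them, so that a value of 0 allows up to 3 reads (2.68 to 3.45 normalized counts, counting error only). The 194 genes took 0.771% to 1.08% of each sample's total. Epcam stood at 3952 to 14377 in the 10 samples with TGFβ and IL-34 and at 657 in Jag1 only, while Cd207, the langerin of mature Langerhans cells, stood at 1366 to 1784 in TGFβ/IL-34/Jag1, at 154 to 157 in TGFβ/IL-34, and at 6.21 to 132 in the groups with FICZ. Replicate 1 of TGFβ/IL-34/FICZ stood apart: it lay outside the range of the other 10 samples in 87 of the 194 genes (26 above, 61 below), against 22 for replicate 2 of that group. It was at least 2-fold below replicate 2 in 45 genes and at least 2-fold above it in 14, and each result on that group is given with both samples. By their labels the 2 samples differ in experiment and in flow cell. Only replicate 1 of this group and replicate 1 of TGFβ/IL-34/Jag1/FICZ were on the second flow cell. The part of either in the gap was not tested. The Jag1 only sample also lay outside the others in 87 genes (45 above, 42 below).

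**Figure D1:**
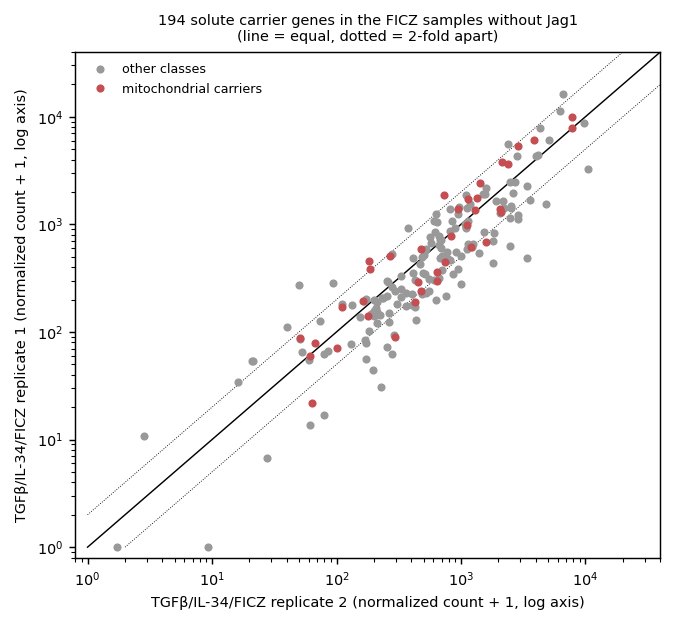
Normalized counts + 1 of the 194 solute carrier genes in replicate 1 of TGFβ/IL-34/FICZ (y axis, log) against replicate 2 (x axis, log), with mitochondrial carriers in red and all other classes in gray. The solid line marks equal values and the dotted lines a 2-fold gap; 45 genes lie at least 2-fold lower in replicate 1 and 14 at least 2-fold higher.

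Promoter windows of 300 bases (250 before and 50 after the start, RefSeq, GRCm38.p6) matched 149 of the 194 genes, with 197 windows. They were searched on both strands for GCGTG, the core of the dioxin response element bound by Ahr, and for the longer TNGCGTG, which contains that core. Of the windows of these genes 51.8% held the core and 10.2% the longer form, against 32.4% and 5.07% of all 32851 windows in the table. Those windows cover 27025 genes, expressed here or not, while the 194 genes were chosen by expression. Base composition was not matched either, so the gap is no measure of enrichment. Of the windows of genes that rose with FICZ in the Jag1 cultures, 46.7% of 30 held the core and 3.33% the longer form, and of those that fell, 42.3% and 11.5% of 26. A match is a run of letters and not a shown site. The upstream 250 bases are printed for Slc2a6 (chr2:27027999-27028248, minus strand) and Slc16a11 (chr11:70213660-70213909, plus strand), because these genes moved in opposite directions with Jag1 and each holds the longer motif before its start. Capitals mark that motif, as the reverse complement CACGCGA beginning 109 bases before the start in Slc2a6 and as TTGCGTG beginning 55 bases before it in Slc16a11, and both genes were picked after their values and matches were seen.
Slc2a6: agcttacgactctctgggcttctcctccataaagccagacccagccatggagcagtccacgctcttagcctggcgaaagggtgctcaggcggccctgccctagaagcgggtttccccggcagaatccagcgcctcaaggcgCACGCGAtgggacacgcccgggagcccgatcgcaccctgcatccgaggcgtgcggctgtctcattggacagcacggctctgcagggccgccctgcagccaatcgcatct
Slc16a11: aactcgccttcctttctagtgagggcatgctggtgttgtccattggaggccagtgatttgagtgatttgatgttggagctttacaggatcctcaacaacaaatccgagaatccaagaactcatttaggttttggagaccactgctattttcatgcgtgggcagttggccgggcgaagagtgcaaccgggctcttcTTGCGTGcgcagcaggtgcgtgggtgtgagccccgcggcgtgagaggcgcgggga

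Over the 4 replicated cultures, 49 of the 194 genes varied (limma F test, adjusted p under 0.05), or 25.3%, where 18.0% of the 13095 genes tested did. Among the 164 genes at 50 or more in every sample, 33 varied (20.1%), a share near that of all genes tested. Of the 30 genes below 50 in some sample, 16 varied (53.3%). Those 30 met the rule only through the samples where they were higher, so the gap between 25.3% and 18.0% is partly one of selection. The highest and lowest group means were less than 2-fold apart in 122 genes, 2-fold to 4-fold apart in 48 and at least 4-fold apart in 24 (with 1 added to each mean). The classes differed in how many of their genes varied: 9 of 27 amino acid carriers, 3 of 11 sugar carriers, 4 of 6 monocarboxylate carriers, 2 of 5 nucleoside carriers, 5 of 26 metal carriers, 3 of 37 mitochondrial carriers, 9 of 26 ion carriers, 9 of 32 carriers of lipids, vitamins and other organic molecules, and 4 of 20 nucleotide sugar carriers. Among the 37 mitochondrial carriers of the SLC25 family no gene reached a 4-fold range, and the widest was 2.80-fold. The differences between classes were not tested.

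**Figure D2:**
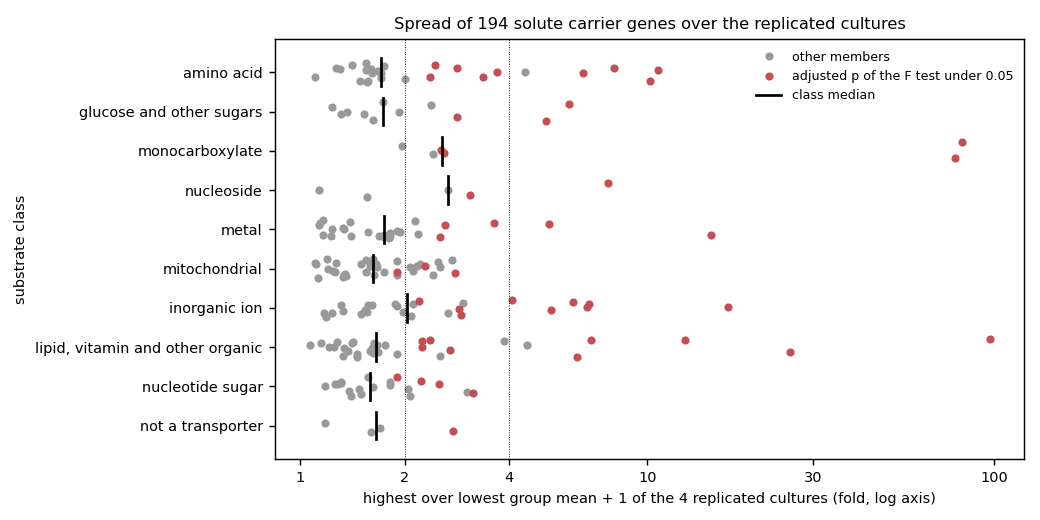
Ratio of the highest to the lowest group mean + 1 over the 4 replicated cultures (x axis, fold, log) for each of the 194 genes, by substrate class (y axis), in red where the F test gave an adjusted p under 0.05, with a black bar at the class median. The mitochondrial class has its median at 1.63-fold and no gene past 4-fold, and the monocarboxylate class has 2 genes near 80-fold.

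Adding Jag1 to TGFβ/IL-34 cultures raised 9 of the 194 genes and lowered 12 (limma, adjusted p under 0.05), where 2.64% of all genes tested rose and 3.96% fell. Of these calls, 6 and 7 were in the 164 genes at 50 or more in every sample (7.93% called, against 6.60% of all genes tested). The median log2 fold change was −0.02 over the 194 genes and −0.0041 over all genes. In bulk RNA, fewer cells of a type and less RNA per cell cannot be told apart. OP9 stroma markers moved with Jag1: their summed value over 16 genes was 36.8 to 38.4 in TGFβ/IL-34, 61.2 to 94.4 in TGFβ/IL-34/FICZ, 484 to 1294 in TGFβ/IL-34/Jag1 and 893 to 5646 in TGFβ/IL-34/Jag1/FICZ, with 8 of 12 tested higher with Jag1 without FICZ, 9 higher with Jag1 in the presence of FICZ and 2 higher with FICZ in Jag1 cultures, and Dcn and Lum listed at 0 in all 11 samples. Markers of mast cells and basophils summed to 6078 to 6343 in TGFβ/IL-34 and 1784 to 2941 in TGFβ/IL-34/Jag1, with 3 of 6 tested lower with Jag1. Those of granulocyte progenitors summed to 468 to 1143 and 205 to 325, with 2 of 10 lower (Elane and Cebpe, by log2 fold changes of −5.23 and −4.31). The part of these markers in the changes of the solute carriers was not tested.

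Adding FICZ to the Jag1 cultures raised 27 of the 194 genes and lowered 21, where 10.9% of all genes tested rose and 6.71% fell. Of these, 16 and 16 were in the 164 genes at 50 or more in every sample (19.5% called, against 17.7% of all genes tested). The median log2 fold change of the 194 was −0.05 (−0.0083 over all genes). Markers of granulocyte progenitors moved with FICZ: their summed value over 10 genes was 205 to 325 in TGFβ/IL-34/Jag1 and 8488 to 13261 in TGFβ/IL-34/Jag1/FICZ, with 8 of 10 called higher and Mpo not called (3.42 to 12.2 against 3.75 to 4.29). Markers of mast cells and basophils summed to 1784 to 2941 and 9256 to 12208, with 4 of 6 tested called higher and Fcer1a listed at 0 in all 11 samples. Of 8 genes of the sorted cells themselves, 3 fell with FICZ in Jag1 cultures and 1 rose with Jag1. What these markers contribute to the counts of solute carriers was not tested. The comparison of Jag1 without FICZ and that of FICZ with Jag1 share the TGFβ/IL-34/Jag1 samples.

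**Figure D3:**
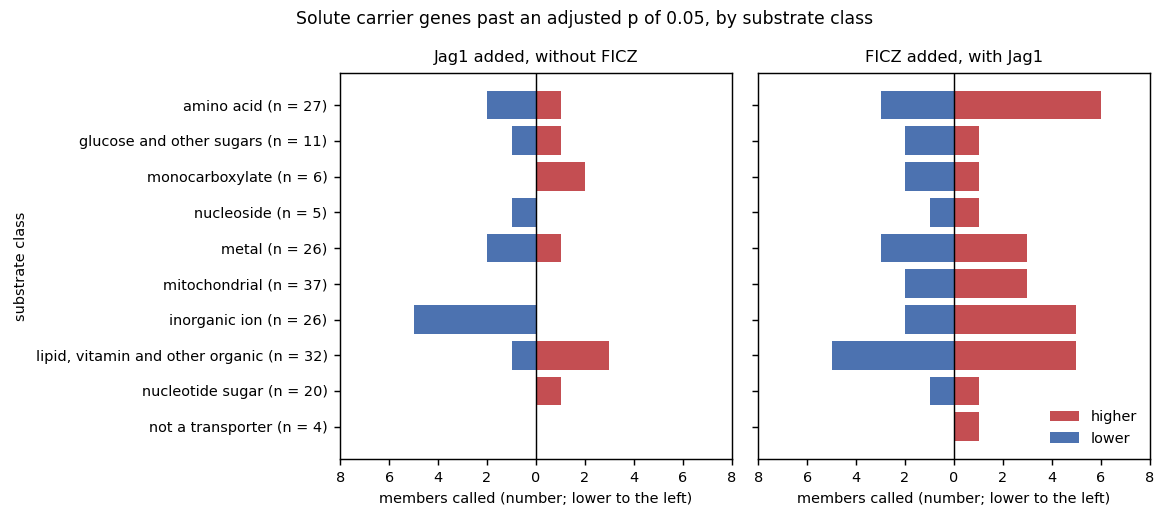
Number of solute carrier genes called higher (red, to the right) or lower (blue, to the left) in each substrate class (y axis, with class size) when Jag1 was added without FICZ (left panel) and when FICZ was added with Jag1 (right panel). The amino acid class has 6 genes higher and 3 lower with FICZ, and the mitochondrial class has no call with Jag1.

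Without Jag1, FICZ gave no call among the 194 genes by limma (31 at an unadjusted p under 0.05, where 17.4% of all genes tested were). Of all genes tested, 0.0153% rose and 0.00764% fell. The spread between the 2 TGFβ/IL-34/FICZ samples limits this comparison. With replicate 2 of that group left out, 79 of the 194 were called (40.7%, against 43.7% of all genes tested), and with replicate 1 left out, none. Jag1 in the presence of FICZ raised 3 genes (Slc13a3, Slc16a3 and Slc35a5) and lowered 2 (Slc2a6 and Slc31a2), where 1.41% of all genes rose and 0.603% fell. This count ran from 1 to 88 when each sample was left out in turn (88 without replicate 2 of TGFβ/IL-34/FICZ, or 45.4% against 44.4% of all genes tested). With a block for the replicate number, Slc2a6 kept its call, the other 4 lost theirs (adjusted p = 0.0716 for Slc13a3, 0.0609 for Slc16a3 and Slc31a2 and 0.0792 for Slc35a5), and Slc4a8 was called in addition (0.0359). The test of the difference between the FICZ effects with and without Jag1 (the interaction) called 6 genes, 4 with a more positive FICZ effect in Jag1 cultures (Slc24a3, Slc4a8, Slc43a3 and Slc2a6) and 2 with a more negative one (Slc16a11 and Slc37a1), where 1.17% and 0.221% of all genes were called in these directions. That count ran from 0 without a TGFβ/IL-34 sample (either of them) or with replicate 2 of TGFβ/IL-34/Jag1/FICZ left out to 86 without replicate 2 of TGFβ/IL-34/FICZ (44.3%, against 41.9% of all genes tested).

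Of the 27 amino acid carriers, 6 rose with FICZ in Jag1 cultures (Slc16a10, Slc6a9, Slc7a8, Slc7a11, Slc7a1 and Slc1a5) and 3 fell (Slc36a2, Slc43a2 and Slc7a7), and with Jag1 alone 1 rose (Slc7a7) and 2 fell (Slc16a10 and Slc7a2). Of all genes tested, 10.9% rose and 6.71% fell with FICZ in Jag1 cultures, and 2.64% rose and 3.96% fell with Jag1. Per kb of transcript, the scale on which genes can be compared, the highest levels of the class were those of the heavy chain Slc3a2 (3391 normalized counts per kb, mean of the 5 groups) and of its partner Slc7a5, the main importer of large neutral amino acids (2931), and neither was called in any comparison. Slc7a5 stood at 8768 to 15424 in the 10 samples with TGFβ and IL-34 and at 3241 in Jag1 only. Slc3a2 stood at 6483 to 10550 in 10 samples and at 16164 in replicate 1 of TGFβ/IL-34/FICZ.

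Slc7a7 (ENSMUSG00000000958, chr14:54606895-54655603 in GRCm39) encodes the light chain y+LAT1, which exports arginine and lysine. It stood at 1308 and 1431 in TGFβ/IL-34, at 1243 and 952 in TGFβ/IL-34/FICZ, at 3990, 3171 and 3936 in TGFβ/IL-34/Jag1, at 1974, 1687 and 2153 in TGFβ/IL-34/Jag1/FICZ and at 3019 in Jag1 only. The 3 Jag1 samples without FICZ lay above all others, and the Jag1 samples with FICZ lay between them and the cultures without Jag1. The log2 fold change was 1.43 (SE 0.188, adjusted p = 0.00179) with Jag1 and −0.93 (SE 0.168, adjusted p = 0.00365) with FICZ in Jag1 cultures. Both calls were kept under every alternative. Its transcripts share 10.4% of their exon bases with Oxa1l on the opposite strand.

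Slc16a10 (ENSMUSG00000019838, chr10:39909448-40018304), a facilitator of aromatic amino acids, stood at 165 and 83.7 in TGFβ/IL-34, at 183 and 109 in TGFβ/IL-34/FICZ, at 17.9, 12.3 and 10.2 in TGFβ/IL-34/Jag1, at 113, 110 and 80.4 in TGFβ/IL-34/Jag1/FICZ and at 65.5 in Jag1 only. The Jag1 samples without FICZ were the lowest, with no overlap, and the other replicated groups overlapped. It fell by 3.07 on the log2 scale with Jag1 (SE 0.429, adjusted p = 0.00253) and rose by 2.84 with FICZ in Jag1 cultures (SE 0.383, adjusted p = 0.000721), again under every alternative.

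Slc7a11 (ENSMUSG00000027737, chr3:49846975-50398070), the cystine importer that feeds glutathione synthesis, stood at 1386 and 1862 in TGFβ/IL-34, at 1951 and 2629 in TGFβ/IL-34/FICZ, at 1703, 899 and 1097 in TGFβ/IL-34/Jag1, at 3521, 3526 and 3454 in TGFβ/IL-34/Jag1/FICZ and at 3565 in Jag1 only. The 3 samples with both Jag1 and FICZ agreed closely and lay above all other samples with TGFβ and IL-34. The rise with FICZ in Jag1 cultures was 1.56 (log2, SE 0.235, adjusted p = 0.00136). The glycine carrier Slc6a9 stood at 116, 20.5 and 40.0 in TGFβ/IL-34/Jag1 and at 349, 291 and 493 with FICZ added (log2 fold change 2.98, SE 0.536, adjusted p = 0.00361). It stood at 205 and 236 in TGFβ/IL-34/FICZ, against 34.1 and 58.5 in TGFβ/IL-34, a difference that was not called. Slc6a9 shares 23.5% of its exon bases with Ccdc24 on the opposite strand.

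Slc7a8, a further partner of Slc3a2 for neutral amino acids, rose with FICZ in Jag1 cultures (log2 fold change 2.97, adjusted p = 0.00577), from 37.3, 118 and 191 to 910, 738 and 621. Slc7a1, the general arginine importer, went from 753 ± 161 up to 1572 ± 128 (SD of 3 samples; log2 change 1.08, adjusted p = 0.0303), and the glutamine carrier Slc1a5 from 1714 ± 286 up to 2886 ± 333 (log2 change 0.76, adjusted p = 0.0142). The calls of Slc7a1 and Slc1a5 were lost in 5 and 4 of the 11 fits that each left out 1 sample, all of them samples of these 2 groups (up to 0.11 and 0.0751, in both cases with replicate 2 of TGFβ/IL-34/Jag1/FICZ left out). Slc7a2, the inducible arginine importer, was called with Jag1 instead and stood at 1516 and 1893 in TGFβ/IL-34 and at 582, 351 and 454 with Jag1 (log2 fold change −1.90, adjusted p = 0.0064), with 582, 419 and 400 when FICZ was added too. Its call was lost without replicate 2 of TGFβ/IL-34 (adjusted p = 0.101).

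Of the carriers that fell with FICZ in Jag1 cultures, Slc36a2, a proton-coupled carrier of small amino acids, went from 86.8, 169 and 114 to 3.54, 8.95 and 19.2 (log2 fold change −3.62, adjusted p = 0.00234) and was listed at 0 in Jag1 only. Slc43a2, a carrier of large neutral amino acids that needs no heavy chain, fell by 1.07 (adjusted p = 0.012). That call was lost without replicate 3 of TGFβ/IL-34/Jag1 or replicate 2 of TGFβ/IL-34/Jag1/FICZ (at 0.052 and 0.0617). No comparison called Slc7a6, Slc38a1, Slc38a2, Slc36a1 or Slc15a3. Slc15a3, the lysosomal histidine and peptide carrier, was among the highest of the class per kb (2927), at 4432 to 7417 in 10 samples and 11196 in replicate 1 of TGFβ/IL-34/FICZ.

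Genes of the amino acid response, a list written from common knowledge, gave 4 of 13 tested higher and none lower with FICZ in Jag1 cultures, with a median log2 fold change of 0.85. Of all genes tested, 10.9% rose and 6.71% fell in that comparison. The 4 were Psat1, Phgdh, Shmt2 and Asns, enzymes of serine, glycine and asparagine synthesis. Psat1 stood at 110, 152 and 130 in TGFβ/IL-34/Jag1 and at 2270, 2336 and 2018 with FICZ (log2 fold change 4.08, adjusted p = 1.6e-06), and Phgdh rose by 3.78 (adjusted p = 8.41e-05). The regulator Atf4 was not called, at 5847, 3393 and 3801 against 6018, 5487 and 5486. With Jag1 alone only Psat1 was called, and it fell by 1.91 (adjusted p = 0.000747).

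Among the sugar carriers, Slc2a6 (ENSMUSG00000036067, chr2:26911226-26918092), a hexose carrier of lysosomal membranes also named GLUT6, was the highest of the class per kb (1525 normalized counts per kb). It stood at 4885 and 5098 in TGFβ/IL-34, at 6043 and 5097 in TGFβ/IL-34/FICZ, at 1120, 1077 and 1072 in TGFβ/IL-34/Jag1, at 2623, 2698 and 2714 in TGFβ/IL-34/Jag1/FICZ and at 1248 in Jag1 only. All 4 samples with Jag1 and no FICZ were low, those with both were intermediate and those without Jag1 were high, with narrow gaps between replicates. The log2 fold change was −2.19 with Jag1 (SE 0.142, adjusted p = 4.11e-05) and 1.30 with FICZ in Jag1 cultures (SE 0.127, adjusted p = 0.000128), both kept under every alternative. In the presence of FICZ, Jag1 lowered it by a log2 fold change of −1.05 (adjusted p = 0.00772), which was kept without any 1 sample but lost in a fit to these 2 groups alone (0.124) and with sample weights (0.437). The interaction was 1.14 (adjusted p = 0.0365), lost in 8 of the 11 fits without 1 sample (adjusted p = 0.0567 to 0.218), those without a TGFβ/IL-34 sample included.

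Slc37a1 (ENSMUSG00000024036, chr17:31495739-31569713), a glucose-phosphate exchanger of the endoplasmic reticulum, stood at 206 and 197 in TGFβ/IL-34, at 144 and 190 in TGFβ/IL-34/FICZ, at 733, 1263 and 997 in TGFβ/IL-34/Jag1, at 170, 205 and 260 in TGFβ/IL-34/Jag1/FICZ and at 531 in Jag1 only. The samples with Jag1 and no FICZ were high, and TGFβ/IL-34/Jag1/FICZ overlapped both groups without Jag1. It rose by 2.27 on the log2 scale with Jag1 (SE 0.284, adjusted p = 0.00134) and fell by 2.22 with FICZ in Jag1 cultures (SE 0.254, adjusted p = 0.000302), under every alternative. Its interaction (−1.94, adjusted p = 0.049) was lost in 10 of the 11 fits without 1 sample (adjusted p up to 0.252).

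Slc37a3, a lysosomal relative, fell with FICZ in Jag1 cultures from 757, 662 and 838 to 256, 191 and 386 (log2 fold change −1.49, adjusted p = 0.00292). The glucose importers of the plasma membrane were not called in any comparison. Slc2a1 stood at 1930 to 3142 in the 10 samples with TGFβ and IL-34 and at 1390 in Jag1 only, and Slc2a3 at 226 to 955. Slc37a2, the member best known from macrophages, stood at 510 to 1071 in those 10 samples and at 1867 in Jag1 only.

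**Figure D4:**
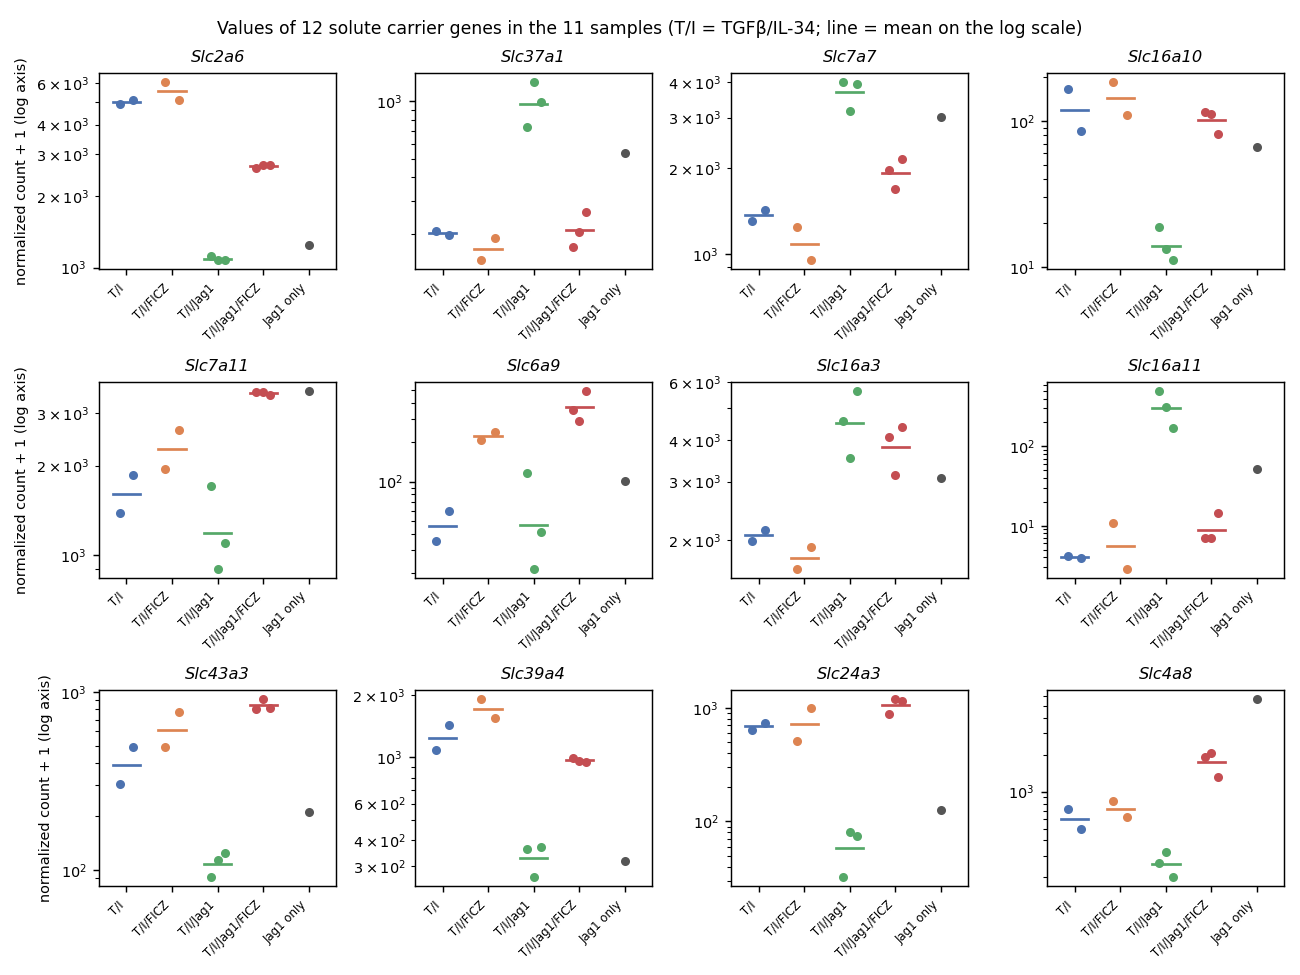
Normalized counts + 1 (y axis, log) of 12 solute carrier genes in the 11 samples, grouped by culture (x axis, T/I = TGFβ/IL-34), with 1 point per sample and a line at the mean of the log values of each replicated group. Slc2a6, Slc16a10, Slc43a3, Slc39a4, Slc24a3 and Slc4a8 are lowest in TGFβ/IL-34/Jag1 among the replicated groups, and Slc37a1, Slc7a7 and Slc16a11 are highest there.

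Among the monocarboxylate carriers, Slc16a3 (ENSMUSG00000025161, chr11:120838846-120851694), the lactate exporter MCT4, was the highest of the class per kb (653 normalized counts per kb). It stood at 1985 and 2145 in TGFβ/IL-34, at 1634 and 1900 in TGFβ/IL-34/FICZ, at 4562, 3542 and 5645 in TGFβ/IL-34/Jag1, at 4082, 3134 and 4381 in TGFβ/IL-34/Jag1/FICZ and at 3066 in Jag1 only. Every sample with Jag1 lay above every sample without it, and the groups with and without FICZ overlapped. The rise with Jag1 was 1.12 (log2, SE 0.221) both without FICZ (adjusted p = 0.0139) and with it (adjusted p = 0.033). The call without FICZ was lost without either TGFβ/IL-34 sample (adjusted p = 0.131 and 0.116), and the call with FICZ in 7 of the 11 fits without 1 sample (adjusted p = 0.0542 to 0.13). Slc16a3 shares 40.1% of its exon bases with Csnk1d on the opposite strand, and the strand setting of the quantification is not given in the sources used here.

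Slc16a1, the lactate carrier MCT1, was not called with Jag1 and rose with FICZ in Jag1 cultures, from 209, 189 and 265 to 565, 556 and 446 (log2 fold change 1.24, SE 0.24, adjusted p = 0.00529). Of 26 genes tested that work with solute carriers or beside them, 3 rose and 5 fell with FICZ in Jag1 cultures, where 10.9% of all genes tested rose and 6.71% fell. Of the chaperones of both lactate carriers, Emb fell with Jag1 (log2 fold change −1.43, adjusted p = 0.00604) and rose with FICZ in Jag1 cultures (2.27, adjusted p = 0.000102), from 2913, 1609 and 2480 to 11221, 10746 and 10834. Bsg was not called.

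Slc16a11 (ENSMUSG00000040938, chr11:70103578-70107267), a proton-coupled monocarboxylate carrier linked to lipid metabolism, stood at 3.19 and 2.96 in TGFβ/IL-34, at 9.75 and 1.86 in TGFβ/IL-34/FICZ, at 501, 315 and 169 in TGFβ/IL-34/Jag1, at 6.07, 6.06 and 13.3 in TGFβ/IL-34/Jag1/FICZ and at 50.2 in Jag1 only. The 3 Jag1 samples without FICZ were high and the other replicated samples near the limit of detection. Only these 3 samples and Jag1 only reached 50, so the gene met the rule through the group where it was high. The TGFβ/IL-34 samples held about 3 reads each, so that the ratio of 105 to the Jag1 group, computed from reads, has a 95% counting interval of 48.1 to 287 and the fitted log2 fold change (6.20, SE 0.685, adjusted p = 0.000676) depends on the pseudocount. With FICZ in Jag1 cultures the log2 fold change was −5.07 (SE 0.613, adjusted p = 0.000419), and both calls were kept under every alternative. The interaction (−5.51, adjusted p = 0.0365) was lost in 8 of the 11 fits without 1 sample (adjusted p up to 0.212). Slc16a11 shares 92.2% of its exon bases with its neighbor Slc16a13 on the opposite strand. Slc16a13 was not called and stood at 346 and 175, at 43.1 and 196, at 78.6, 126 and 329, at 53.6, 65.0 and 204, and at 81.3 in the same order of groups.

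Slc16a14, a carrier of the same family with little known of its substrate, stood at 85.5 and 95.1 in TGFβ/IL-34, at 0 and 8.20 in TGFβ/IL-34/FICZ, at 243, 386 and 547 in TGFβ/IL-34/Jag1 and at 2.62, 26.4 and 55.2 in TGFβ/IL-34/Jag1/FICZ, with 80.3 in Jag1 only. It was low in every sample with FICZ. The fall with FICZ in Jag1 cultures was called (log2 fold change −4.39, adjusted p = 0.0131; 0.0544 without replicate 3 of TGFβ/IL-34/Jag1). Slc16a6, at 314 to 652 in 9 samples, stood at 197 in replicate 1 of TGFβ/IL-34/FICZ and at 103 in Jag1 only and was not called.

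Among the nucleoside carriers, Slc43a3 (ENSMUSG00000027074, chr2:84766862-84788865), which carries purine nucleobases, stood at 301 and 493 in TGFβ/IL-34, at 487 and 774 in TGFβ/IL-34/FICZ, at 89.9, 113 and 123 in TGFβ/IL-34/Jag1, at 806, 910 and 808 in TGFβ/IL-34/Jag1/FICZ and at 209 in Jag1 only. The samples with Jag1 and no FICZ were the lowest and those with both the highest. It fell by 1.83 with Jag1 (log2, SE 0.286, adjusted p = 0.00428; 0.0842 without replicate 2 of TGFβ/IL-34) and rose by 2.95 with FICZ in Jag1 cultures (SE 0.256, adjusted p = 6.52e-05), and its interaction was 2.28 (adjusted p = 0.0365), lost in 9 of the 11 fits without 1 sample (adjusted p up to 0.215). Slc29a3, the lysosomal nucleoside carrier, went the other way with FICZ, from 1712, 1866 and 2123 to 912, 889 and 1100 (log2 fold change −0.97, adjusted p = 0.00583), and stood at 478 and 757 in TGFβ/IL-34/FICZ against 1453 and 1492 in TGFβ/IL-34. Slc29a1, the carrier of the plasma membrane, was the highest of the class per kb (418 normalized counts per kb) and was called in no comparison, at 882 to 1187 in 10 samples and 493 in Jag1 only.

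Jag1 lowered 2 of the 26 metal carriers (Slc39a4 and Slc31a2) and raised 1 (Slc30a9), where 3.96% of all genes tested fell and 2.64% rose. FICZ in Jag1 cultures raised 3 (Slc39a4, Slc30a2 and Slc39a14) and lowered 3 (Slc30a4, Slc31a1 and Slc39a13), where 10.9% of all genes tested rose and 6.71% fell. Slc39a4 (ENSMUSG00000063354, chr15:76496580-76504172), the zinc importer ZIP4, stood at 1080 and 1437 in TGFβ/IL-34, at 1906 and 1551 in TGFβ/IL-34/FICZ, at 361, 264 and 369 in TGFβ/IL-34/Jag1, at 998, 961 and 955 in TGFβ/IL-34/Jag1/FICZ and at 316 in Jag1 only. The 4 samples with Jag1 and no FICZ were low, and those with both lay below the cultures without Jag1. It fell by 1.92 with Jag1 (log2, SE 0.213, adjusted p = 0.000676) and rose by 1.56 with FICZ in Jag1 cultures (SE 0.191, adjusted p = 0.000434), under every alternative.

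The zinc exporters Slc30a2 and Slc30a4, which load vesicles, moved apart with FICZ in Jag1 cultures. Slc30a2 rose from 5.23, 9.58 and 2.71 to 73.3, 45.7 and 32.8 (log2 fold change 2.97, adjusted p = 0.0028), while Slc30a4 fell from 4613, 3912 and 5980 to 1598, 1377 and 1897 (−1.56, adjusted p = 0.00356). Only samples with FICZ brought Slc30a2 to the level set by the rule for membership, so it met the rule through the groups where it was high. Its group means per kb were 30.37 in TGFβ/IL-34/FICZ and 14.87 in TGFβ/IL-34/Jag1/FICZ, and at most 6.876 in the groups without FICZ. Slc30a2 shares 40.2% of its exon bases with Extl1 on the opposite strand. The metallothioneins Mt1 and Mt2, which bind zinc, rose with FICZ in Jag1 cultures (0.95 and 1.56, adjusted p = 0.0442 and 0.0279), and Mt2 fell with Jag1 (−2.09, adjusted p = 0.0263).

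Of the copper carriers, Slc31a2 stood at 1221 and 1162 in TGFβ/IL-34, at 941 and 1091 in TGFβ/IL-34/FICZ, at 408, 642 and 660 in TGFβ/IL-34/Jag1, at 492, 409 and 515 in TGFβ/IL-34/Jag1/FICZ and at 203 in Jag1 only. Every sample with Jag1 lay below every sample without it. The log2 fold change with Jag1 was −1.09 without FICZ (adjusted p = 0.0227; 0.173 and 0.172 without either TGFβ/IL-34 sample) and −1.11 with it (adjusted p = 0.0466, lost in 8 of the 11 fits without 1 sample, up to 0.174). The copper importer Slc31a1 fell with FICZ in Jag1 cultures by 0.75 (adjusted p = 0.0215), a call lost without replicate 3 of TGFβ/IL-34/Jag1 (0.0824) or replicate 2 of TGFβ/IL-34/Jag1/FICZ (0.105). The calls of Slc30a9, Slc39a14 and Slc39a13, all with log2 fold changes under 1 in size, were each lost in 7 or 8 of the 11 fits without 1 sample (adjusted p up to 0.301).

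Slc11a2, an importer of iron and manganese, was not called and stood at 553 to 1334, nor was Slc48a1, which moves heme out of lysosomes and stood at 2795 to 4557 in 10 samples and at 7885 in replicate 1 of TGFβ/IL-34/FICZ. Beside them, the ferritin heavy chain Fth1 fell with FICZ in Jag1 cultures by 2.32 (adjusted p = 0.00225), from 322672 to 516732 in the 3 Jag1 samples to 59984 to 106582. Tfrc, the transferrin receptor, was not called. The iron exporter Slc40a1 and the phagosomal metal carrier Slc11a1 are known from macrophages, did not meet the rule for membership and reached 50 in the Jag1 only sample: Slc40a1 stood at 268 there against at most 23.8 in the other 10 samples, and Slc11a1 at 305 against at most 53.6.

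The ADP/ATP exchangers Slc25a5 and Slc25a4 and the phosphate carrier Slc25a3 were the highest of the mitochondrial carriers per kb (5432, 3368 and 3107 normalized counts per kb), and none of them was called. Slc25a5 stood at 6018 to 7943 in all 11 samples. No carrier of this SLC25 class was called with Jag1 by limma (9 of 37 at an unadjusted p under 0.05, where 19.0% of all genes tested were). The mitochondrial exchanger Slc8b1, which was called, is counted with the ion carriers. With FICZ in Jag1 cultures 3 SLC25 carriers rose (Slc25a37, Slc25a29 and Slc25a25) and 2 fell (Slc25a38 and Slc25a36). Of all genes tested, 10.9% rose and 6.71% fell in that comparison.

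Slc25a37 (ENSMUSG00000034248, chr14:69479297-69522561), mitoferrin-1, the mitochondrial iron importer, stood at 516 and 650 in TGFβ/IL-34, at 444 and 742 in TGFβ/IL-34/FICZ, at 320, 449 and 424 in TGFβ/IL-34/Jag1, at 1125, 1353 and 869 in TGFβ/IL-34/Jag1/FICZ and at 616 in Jag1 only. The samples with both Jag1 and FICZ were above all others. The log2 fold change was 1.48 (SE 0.252, adjusted p = 0.00267), kept under every alternative. Its transcripts share 23.6% of their exon bases with a long noncoding RNA on the opposite strand. Slc25a38, which brings glycine into mitochondria for heme synthesis, fell from 3505, 2769 and 2181 to 1593, 1547 and 1311 (−0.90, adjusted p = 0.00959), while Slc25a28, the second mitoferrin, was not called. The calls of Slc25a29, Slc25a25 and Slc25a36 were lost in 4, 5 and 8 of the 11 fits without 1 sample (adjusted p up to 0.126, 0.0935 and 0.17), and that of Slc25a36 also with the replicate number as a block (0.076), as were those of Slc39a14 (0.0649) and Slc39a13 (0.0527).

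Slc25a1 (citrate), Slc25a10 (dicarboxylates), Slc25a11 (oxoglutarate and malate) and Slc25a20 (carnitine) were not called. Slc25a20 stood at 968 to 1718 in the 10 samples with TGFβ and IL-34 and at 2982 in Jag1 only. Of the mitochondrial pyruvate carrier, which belongs to another family, Mpc1 fell with FICZ in Jag1 cultures (−0.77, adjusted p = 0.0158). Mpc2 fell with Jag1 in the presence of FICZ (−1.16, adjusted p = 0.0407). It stood at 1294 and 732 in replicates 1 and 2 of TGFβ/IL-34/FICZ and at 441, 464 and 404 in TGFβ/IL-34/Jag1/FICZ. Neither call was checked under the alternatives.

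Jag1 lowered 5 of the 26 ion carriers (Slc24a3, Slc4a4, Slc26a10, Slc8b1 and Slc4a8) and raised none, where 3.96% of all genes tested fell and 2.64% rose. FICZ in Jag1 cultures raised those 5 and lowered 2 (Slc4a3 and Slc26a11), where 10.9% of all genes tested rose and 6.71% fell. The comparisons share the TGFβ/IL-34/Jag1 samples. Slc24a3 (ENSMUSG00000063873, chr2:145009674-145484086), which exchanges sodium for calcium and potassium, stood at 640 and 740 in TGFβ/IL-34, at 511 and 994 in TGFβ/IL-34/FICZ, at 31.2, 80.4 and 73.8 in TGFβ/IL-34/Jag1, at 882, 1188 and 1145 in TGFβ/IL-34/Jag1/FICZ and at 125 in Jag1 only. The 4 samples with Jag1 and no FICZ were low, and TGFβ/IL-34/FICZ overlapped the other groups. It fell by 3.57 with Jag1 (log2, SE 0.414, adjusted p = 0.000904) and rose by 4.20 with FICZ in Jag1 cultures (SE 0.37, adjusted p = 7.3e-05), both under every alternative. The interaction was 4.15 (adjusted p = 0.0137), lost without either TGFβ/IL-34 sample (adjusted p = 0.0608 and 0.101) or with replicate 2 of TGFβ/IL-34/Jag1/FICZ left out (0.0673).

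Slc4a8 (ENSMUSG00000023032, chr15:100659621-100721849), a sodium-driven exchanger of chloride and bicarbonate, stood at 721 and 492 in TGFβ/IL-34, at 842 and 618 in TGFβ/IL-34/FICZ, at 258, 322 and 199 in TGFβ/IL-34/Jag1 and at 1926, 2052 and 1319 in TGFβ/IL-34/Jag1/FICZ. Its level in Jag1 only was 5677, above all other samples, so that the samples with Jag1 and no FICZ held both the lowest and the highest value. The rise with FICZ in Jag1 cultures was 2.76 (log2, SE 0.256, adjusted p = 9.28e-05), kept under every alternative. The fall with Jag1 (−1.22, adjusted p = 0.0314) was lost in 6 of the 11 fits without 1 sample, up to 0.288 without replicate 1 of TGFβ/IL-34, and the interaction (2.49, adjusted p = 0.0293) in 5 of them.

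Slc4a4, a sodium bicarbonate cotransporter, fell with Jag1 from 233 and 158 to 31.4, 35.1 and 26.9 and stood at 189, 148 and 117 when FICZ was added too (log2 fold changes −2.59 and 2.23, adjusted p = 0.0196 and 0.0104). The first call was lost in 4 of the 11 fits without 1 sample (adjusted p up to 0.181), and the second with replicate 1 of TGFβ/IL-34/Jag1/FICZ left out (0.0503). Slc8b1, the sodium and calcium exchanger of mitochondria, fell by 1.26 with Jag1 (adjusted p = 0.0064; 0.118 without replicate 2 of TGFβ/IL-34), and its rise with FICZ in Jag1 cultures (0.77, adjusted p = 0.0183) was lost in 4 of the 11 fits without 1 sample, up to 0.0858. Slc4a3, a chloride and bicarbonate exchanger, fell with FICZ in Jag1 cultures from 760, 1013 and 565 to 185, 236 and 197 (−1.88, adjusted p = 0.00667), and Slc26a11, an anion exchanger, from 275, 205 and 261 to 94.1, 64.9 and 93.8 (−1.55, adjusted p = 0.00243). Slc26a10 shares 53.8% of its exon bases with B4galnt1 on the opposite strand, so its values (7.72 to 134) are uncertain. Its fall with Jag1 (−2.21, adjusted p = 0.0389) was lost in 7 of the 11 fits without 1 sample, up to 0.259.

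Of the 32 carriers of lipids, vitamins and other organic molecules, Jag1 raised 3 and lowered 1, where 2.64% of all genes tested rose and 3.96% fell. FICZ in Jag1 cultures raised 5 and lowered 5, where 10.9% of all genes tested rose and 6.71% fell. Slc18a2, the vesicular monoamine carrier by which mast cells store histamine, stood at 106 and 191 in TGFβ/IL-34, at 519 and 507 in TGFβ/IL-34/FICZ, at 41.3, 41.5 and 34.3 in TGFβ/IL-34/Jag1, at 823, 462 and 253 in TGFβ/IL-34/Jag1/FICZ and at 223 in Jag1 only. It rose by 3.53 with FICZ in Jag1 cultures (log2, SE 0.397, adjusted p = 0.000273), while its fall with Jag1 (−1.84, adjusted p = 0.0351) was lost in 6 of the 11 fits without 1 sample, up to 0.36. The mast cell protease Cpa3 stood at 4053, 2653 and 1984 in the same 3 samples with Jag1 and FICZ and at 95.4 to 152 with Jag1 alone. The part of mast cells or basophils in the level of Slc18a2 was not tested.

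The fatty acid carriers and acyl-CoA synthetases of the SLC27 family moved apart with FICZ in Jag1 cultures. Slc27a2 stood at 28.6, 0 and 0 in TGFβ/IL-34/Jag1 and at 276, 283 and 252 with FICZ (adjusted p = 0.00305), a ratio of 32.6 by reads with a 95% counting interval of 21.9 to 50.6 that rests on about 25 reads of 1 Jag1 sample. It stood at 284 and 93.4 in TGFβ/IL-34/FICZ, at 12.9 and 31.0 in TGFβ/IL-34 and at 19.0 in Jag1 only. Slc27a2 was thus high in every sample with FICZ. Only samples with FICZ reached the level set by the rule for membership, so the gene met the rule through the groups where it was high. Slc27a3 rose by 1.22 (adjusted p = 0.00636), and Slc27a1, the form known from muscle and fat, fell from 1368, 1227 and 1117 to 585, 470 and 514 (−1.24, adjusted p = 0.000573).

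Slc22a21, a carnitine carrier, rose with Jag1 from 65.2 and 109 to 430, 471 and 317 (log2 fold change 2.24, adjusted p = 0.00295) and fell to 96.0, 116 and 132 with FICZ added (−1.81, adjusted p = 0.0019), under every alternative. Slc13a3, a carrier of succinate and related dicarboxylates, stood at 111, 133 and 150 in TGFβ/IL-34/Jag1, at 7.84, 18.4 and 66.7 in TGFβ/IL-34/Jag1/FICZ, at 18.6 and 5.31 in TGFβ/IL-34 and at 0 and 0.717 in TGFβ/IL-34/FICZ. Only the 3 TGFβ/IL-34/Jag1 samples and 1 TGFβ/IL-34/Jag1/FICZ sample reached 50, so Slc13a3 met the rule through the group where it was high. It was called in 3 comparisons (log2 fold change 3.56 with Jag1, −2.54 with FICZ in Jag1 cultures and 4.11 with Jag1 in the presence of FICZ), and each call was lost in 5 to 8 of the 11 fits without 1 sample (adjusted p up to 0.313). The folate carrier Slc19a1 rose with FICZ in Jag1 cultures from 166 ± 19.5 up to 374 ± 49.5 (SD of 3 samples; log2 change 1.17, adjusted p = 0.00409) and stood at 35.4 in Jag1 only, below the 144 or more of all other samples.

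Of the other called carriers of this class, Slc44a4, which carries choline and thiamine pyrophosphate, stood at 40.5 and 16.3 in TGFβ/IL-34, at 33.6 and 15.3 in TGFβ/IL-34/FICZ, at 114, 183 and 179 in TGFβ/IL-34/Jag1 and at 32.8, 31.6 and 50.6 in TGFβ/IL-34/Jag1/FICZ. It was high with Jag1 and no FICZ alone among the replicated groups (log2 fold change 2.54 with Jag1, adjusted p = 0.0159, and −2.02 with FICZ in Jag1 cultures, adjusted p = 0.0122), and these calls were lost in 3 and 2 of the 11 fits without 1 sample (up to 0.208 and 0.0557). Only the TGFβ/IL-34/Jag1 samples and the TGFβ/IL-34/Jag1/FICZ sample at 50.6 reached the level set by the rule for membership. Slc44a4 therefore met the rule through the group where it was high. Per kb it stood at 10.55 in Jag1 only, against 12.37 in TGFβ/IL-34 and 69.17 in TGFβ/IL-34/Jag1 (group means). Slc46a3, a lysosomal carrier, fell with FICZ in Jag1 cultures by 1.25 (adjusted p = 0.0102) and shares 44.5% of its exon bases with Pomp. Slc22a23 rose by 1.36 (adjusted p = 0.0154), a call lost in 3 of those fits (up to 0.0748). Slc9a3r2, a scaffold protein and no carrier, rose from 287, 372 and 393 to 753, 1197 and 947 (log2 fold change 1.45, adjusted p = 0.0016).

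Of the 20 carriers of nucleotide sugars, which feed glycosylation in the Golgi apparatus, 1 was called with Jag1 and 2 with FICZ in Jag1 cultures. Of all genes tested, 6.60% and 17.7% were called in these comparisons. Slc35f6, listed in this class by its family name, rose with Jag1 from 1549 and 1520 to 3494, 2841 and 2768 (log2 fold change 0.98, adjusted p = 0.0128; 0.109 and 0.144 without either TGFβ/IL-34 sample) and fell to 1015, 1119 and 1330 with FICZ (−1.39, adjusted p = 0.000419). Slc35a1, the CMP-sialic acid carrier, rose with FICZ in Jag1 cultures by 1.67 (adjusted p = 0.0319), a call lost in 6 of the 11 fits without 1 sample (up to 0.138). Slc35a5 was called with Jag1 in the presence of FICZ alone (1.42, adjusted p = 0.0349), at 736, 581 and 703 against 174 and 361, a call lost in 9 of those fits (up to 0.131).

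**Figure D5:**
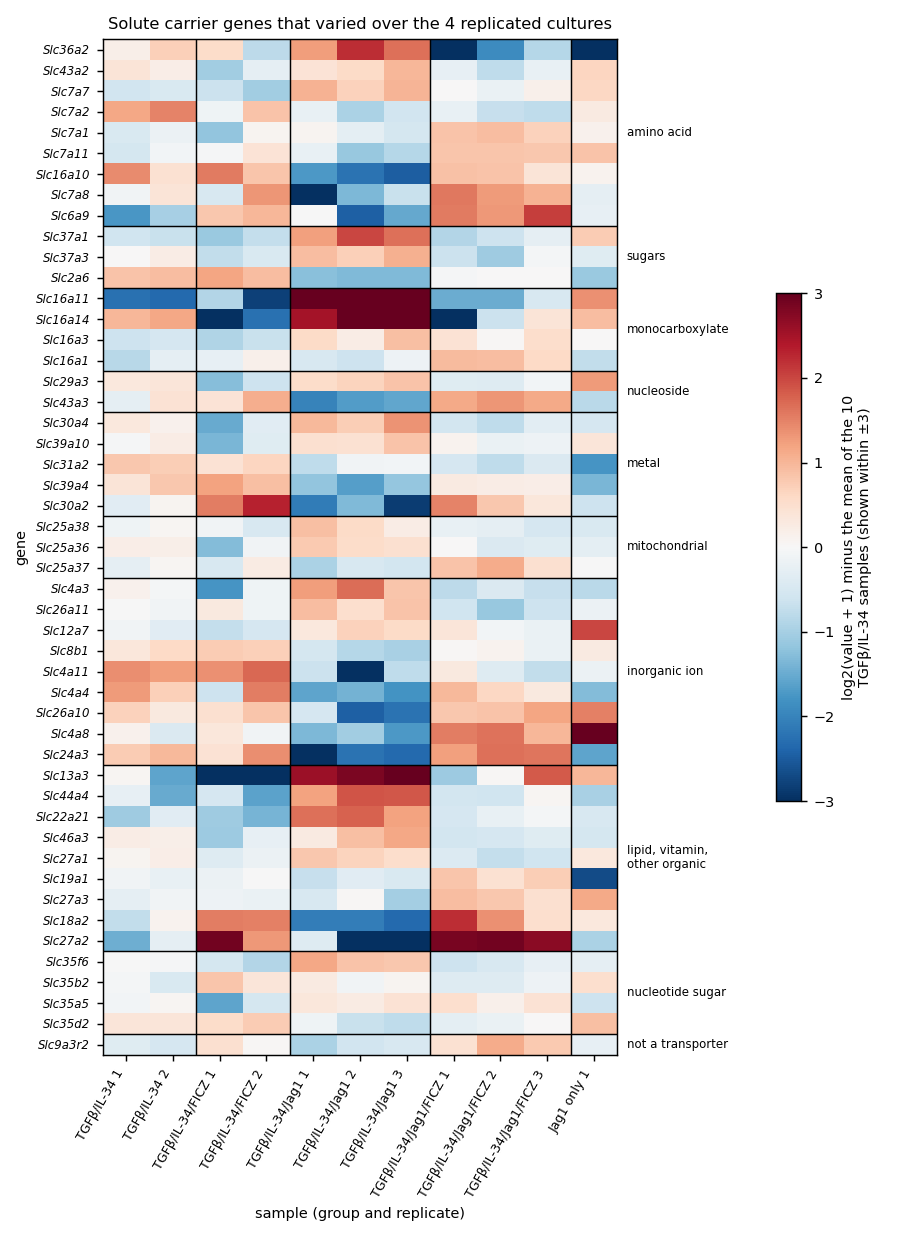
Log2(value + 1) minus the mean of the 10 samples with TGFβ and IL-34 (color, shown within ±3) for the 49 solute carrier genes that varied over the 4 replicated cultures (rows, by substrate class) in the 11 samples (columns). Slc2a6, Slc16a10, Slc24a3, Slc43a3 and Slc18a2 are blue in the 3 TGFβ/IL-34/Jag1 columns, where Slc37a1, Slc16a11 and Slc22a21 are red.

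The Jag1 only culture had 1 sample, so its differences have no replicate check and no test, and the lack of TGFβ and IL-34 cannot be told apart from a peculiarity of that 1 culture. The genes farthest above the range of the other 10 samples were Slc44a1, a choline carrier (2444 against at most 842), Slc4a8 (5677 against 2052), the potassium chloride cotransporter Slc12a7 (2321 against 929), Slc25a35 (419 against 174) and Slc22a4 (608 against 274). Those farthest below were Slc36a2, Slc39a8, an importer of zinc and manganese (28.2 against at least 121), Slc19a1, Slc7a5 (3241 against at least 8768) and Slc31a2 (203 against at least 408).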

How the data were processed

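RNA of 11 sorted samples in 5 culture groups was sequenced in bulk. The authors quantified reads with salmon against mouse transcripts (GRCm39), summed them per gene with tximport and normalized them with DESeq2, and the deposited signal values are these normalized counts, which are not whole numbers. Whole reads could not be recovered for every gene (52.6% to 58.0% of low values came out whole within 0.1 of a step, 81.2% to 98.8% in genes with 1 transcript), and raw counts were not used here, so no count model was fitted. Reads given for single genes are estimates: values divided by the worth of 1 read and rounded. A second deposited file holds experiment codes, which differ from the labels in 1 sample. No per-sample column of another sample was found.

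Values were tested as log2(value + 1) with limma 3.58.1 in R 4.3.3, with 1 mean per group, all 11 samples, a trended prior and Benjamini-Hochberg adjustment over the 13095 genes at 10 or more in at least 2 samples (threshold 0.05). Fold changes on this scale understate the change of low genes. Named genes were, per comparison, up to 5 each way with the largest change and no overlap between groups, per class up to 6 with the smallest F p-value, well known carriers, those beside the threshold and those farthest from the others in Jag1 only. Genes named from the partner and marker lists, the printed promoters and other genes named to complete a count were chosen after values were seen. The members and lists were chosen with earlier results of these data known. Levels per kb used the transcript lengths of GENCODE vM39, which holds 21676 of the 21860 genes. GRCm39 coordinates and shared exon bases are from it, and promoters are from RefSeq.

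Pairing was checked by correlating the deviations of same-numbered samples. TGFβ/IL-34/Jag1 shares an experiment code per number with TGFβ/IL-34/Jag1/FICZ, and this pair of groups gave 0.153, 0.122 and 0.166. TGFβ/IL-34/FICZ and TGFβ/IL-34/Jag1/FICZ also share it and gave 0.0591 and 0.0578. Alternatives were a pseudocount of 0.5 or 4, no filter, quantile normalization, sample weights, the groups compared alone, the replicate block, the experiment code and each sample left out. Blocks by the experiment code of the second file and by flow cell were added after seeing the data.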

Additional observations from a re-analysis of the deposited data

Results flagged for a closer look

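The effect of FICZ in Jag1 cultures differed from its effect without Jag1 in 6 solute carrier genes, by a test of the difference itself (limma interaction, adjusted p under 0.05). On the log2 scale the effect with Jag1 minus the effect without it was 4.15 for Slc24a3, 2.49 for Slc4a8, 2.28 for Slc43a3 and 1.14 for Slc2a6. It was −5.51 for Slc16a11 and −1.94 for Slc37a1. The effect without Jag1 rests on 2 TGFβ/IL-34/FICZ samples that stood apart from each other, and none of these 6 calls was kept in every fit that left out 1 sample.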

How the results depend on the processing

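Of 80 calls of single genes in the 5 comparisons, 40 were kept under all 21 alternatives (32 for FICZ with Jag1, 8 for Jag1 without FICZ, 0 for Jag1 with FICZ and 0 for the interaction), and no call changed sign. With sample weights, which gave the TGFβ/IL-34/FICZ samples 0.151 each, the counts were 57 for Jag1 without FICZ, 83 for FICZ with Jag1, 0 for Jag1 with FICZ, 0 for the interaction and 93 for the F test. For Jag1 with FICZ, 1 gene was called with no filter, 0 with only the groups of the contrast, 2 with the replicate block (1 of them among the 5), 2 with the experiment code of the labels as a block and 3 with that of the authors' file. For the interaction, 2 were called with no filter and 2 with the experiment code of the labels. The cause was not tested. With each sample left out in turn, the counts ran from 8 to 45 for Jag1 without FICZ, from 0 to 79 for FICZ without Jag1, from 34 to 77 for FICZ with Jag1, from 1 to 88 for Jag1 with FICZ, from 0 to 86 for the interaction and from 35 to 132 for the F test. The counts of 79, 88, 86 and 132 came without replicate 2 of TGFβ/IL-34/FICZ, a fit in which the lone sample is assumed to vary like the other groups. The replicate block gave 17 calls for Jag1 without FICZ, 47 for FICZ with Jag1 (45 of the 48 kept) and 7 for the interaction. Same-numbered samples of TGFβ/IL-34 and TGFβ/IL-34/Jag1 carry different experiment codes in the labels (correlations 0.0475 and 0.0417). Replicates 1 and 2 of TGFβ/IL-34 carry the codes of replicates 2 and 3 of TGFβ/IL-34/Jag1, and no correlation was computed for those pairs. The replicate block therefore does not match experiments for TGFβ/IL-34. By the labels, TGFβ/IL-34 lacks the first experiment and TGFβ/IL-34/FICZ lacks the last. Depth limits the genes near 3 reads, Slc16a11, Slc13a3 and Slc27a2 among them.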
